A study of Macaca fascicularis with 28 samples.

Results

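Circumvallate (CV) and fungiform (FG) taste buds of the same 4 cynomolgus macaques (Macaca fascicularis) were compared gene by gene. The members are 8 of the 28 samples of the series, namely the whole CV taste bud sample and the FG taste bud sample of animals 1, 3, 4 and 5, the animals that gave both kinds, and each difference was taken within an animal. Animal 1 was a female of 4 years, animal 3 a male of 3.8, animal 4 a male of 2.6 and animal 5 a female of 3, and no genotype or treatment is given for any of them. Tongue tissue was taken after death, and about 5000 cells per sample were cut out of frozen sections by laser capture, pooled over sections, and their RNA amplified before it was hybridized to an Affymetrix Rhesus Macaque Genome Array, a chip designed for another macaque species. The same animals gave lingual epithelium (LE) without taste buds from beside each papilla type, which serves here to show whether a difference also exists outside the taste bud. Animals 2 and 6 (females of 3 and 4.5 years) gave FG taste buds and LE but no CV sample. A second array set came from 4 other animals, numbered 7 to 10 and all 3 years old, whose CV buds were divided into a top and a bottom fraction. The numbers of the animals come from the sample labels.

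The CV papillae lie at the back of the tongue and carry many taste buds in the walls of a deep trench, into whose floor the serous glands of von Ebner drain. Each FG papilla sits on the front of the tongue with a few buds under its surface. The glossopharyngeal nerve supplies the CV buds and the chorda tympani the FG buds, and the epithelium of the back of the tongue is held to be of endodermal and that of the front of ectodermal descent. Both kinds of bud contain glia-like type I cells, type II cells with receptors for sweet, umami or bitter compounds, and type III cells, which sense acid, make serotonin and form synapses. In mice and humans the umami receptor subunit TAS1R1 is known mainly from the front of the tongue and bitter receptors mainly from the back.

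The deposited values are intensities in arbitrary units, and 20059 of the 52024 probe sets reached 25 units, the minimum used in the methods of the study, in at least 4 of the 8 samples. A log2 change is the mean over the 4 animals of CV minus FG, given ± its standard error. Probe sets were tested in limma, each animal being a block (the paired fit), and passed at an adjusted p of at most 0.05. This fit leaves 3 residual degrees of freedom, and precision is limited by how few arrays there were. A second fit, the 10-array fit, added the FG samples of animals 2 and 6 and treated the animal as a random block, and its adjusted p is given beside the first. Folds are given with values under 25 units raised to 25, and so differ from the log2 changes beside them where a value was raised. Lists of values run in the order of animals 1, 3, 4 and 5. Where a list of genes is described, each gene counts once, and 9463 genes had a tested probe set. In bulk samples such as these, fewer cells of a type and less RNA per cell cannot be told apart.

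The 8 arrays were broadly alike, with those of animal 1 somewhat apart. Pearson correlations of log2 intensities lay between 0.878 and 0.922 for CV with FG arrays, between 0.893 and 0.921 among CV and between 0.901 and 0.939 among FG arrays. The CV array of animal 1 correlated at 0.893 with each other CV array. The median over the tested probe sets was 128.7 (CV) and 133.3 (FG) units in animal 1. In animals 3, 4 and 5 it was 152.9 to 159.2. Both bud types carried the mark of taste tissue. The summed level of 16 type II cell transduction genes was 18460 to 24990 units in the CV and 20790 to 25390 in the FG samples, against 756.7 to 1207 in LE of the same animals. Differentiated keratinocyte markers, 23 genes, summed to 11800 to 16480 units in CV and 9354 to 30190 in FG buds, against 136600 to 152500 in LE. The bud types were unequal in markers of other tissues, and these values stand beside all results below. The 13 salivary and von Ebner gland markers on the array summed to 5999, 4348, 6920 and 6164 units in CV and 1596, 1127, 1741 and 2267 in FG buds, higher in CV in 4 of 4 animals. On average most of these sums came from the marker AZGP1, described below. Of the 13, 3, 4, 7 and 7 reached 25 units in CV and 1, 3, 2 and 3 in FG buds. The 12 leukocyte markers summed to 390, 1071, 656.3 and 195 units in CV and 1550, 1006, 2535 and 2380 in FG buds, and the 8 skeletal muscle markers to 105.6, 430.5, 270.5 and 105.9 in CV and 122.3, 3662, 1823 and 285.1 in FG buds. The 9 basal keratinocyte markers summed to 5064, 4025, 6243 and 5650 units in CV and 7559, 6378, 6940 and 7091 in FG buds, higher in FG in 4 of 4 animals without overlap. Leukocyte markers were higher in the FG sample of animals 1, 4 and 5 but not 3, and muscle markers were higher in the FG samples of all 4 animals, by the most in animals 3 and 4. The part of these other tissues in the results was not tested except where it is said otherwise.

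**Figure D1:**
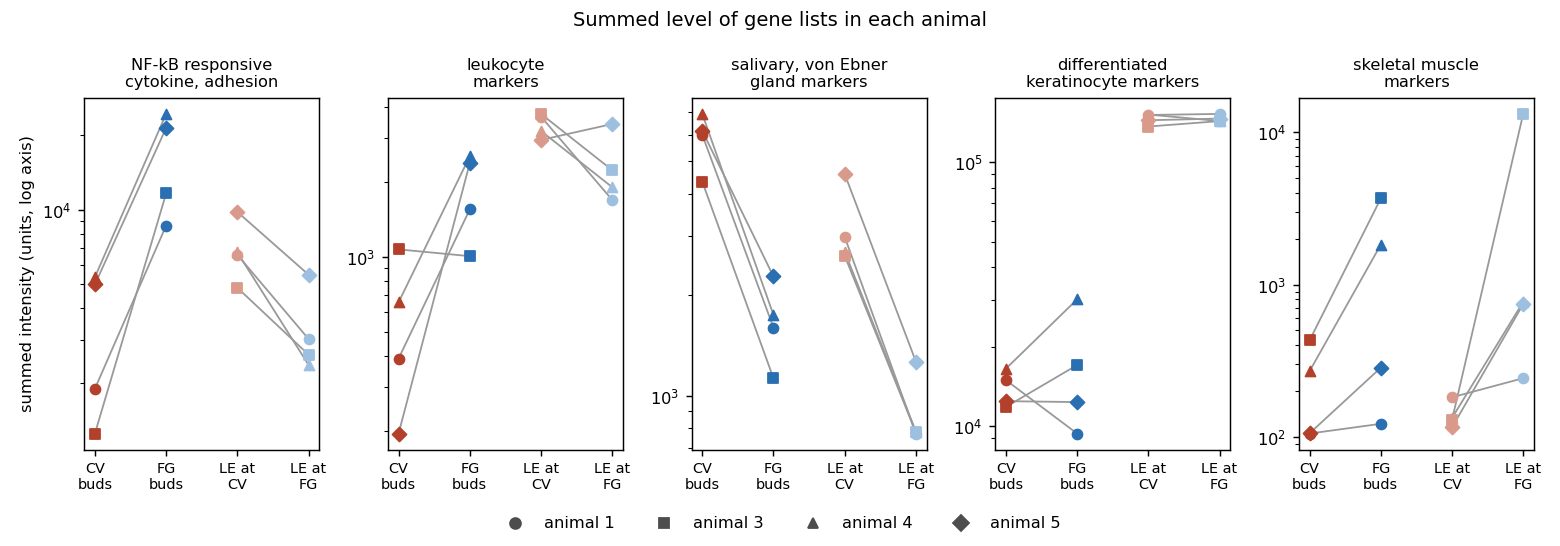
Summed intensity in units, on log axes, of 5 gene lists in CV and FG taste buds and in the lingual epithelium (LE) beside CV and FG papillae, with 1 point per animal and lines joining the samples of an animal. The NF-kB responsive genes were higher in FG than CV buds and lower beside FG than beside CV papillae in all 4 animals, gland markers were higher on the CV side in both tissues, and keratinocyte markers were far higher in LE than in either bud type.

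In the paired fit, PAX1 was higher in CV buds and 2 probe sets without a gene name in the tables used here were higher in FG buds, and no other probe set passed. These 3 are 0.015% of the probe sets tested, 0.00499% higher in CV and 0.00997% higher in FG, and all 3 changed by more than 5-fold. At an unadjusted p under 0.05 there were 2534 (12.6%). The 10-array fit passed 117 probe sets higher in CV (0.583%) and 181 higher in FG (0.902%), together 1.49%. A further fit of 20 arrays, which added the LE samples pooled over both sites, passed 108 and 133 (0.538% and 0.663%, together 1.2%). In every animal 1972 probe sets (9.83%) were higher in CV and 2588 (12.9%) higher in FG. All 4 CV samples lay above all 4 FG samples for 625 (3.12%) and below them for 976 (4.87%), and the change was also at least 5-fold for 82 (0.409%) and 132 (0.658%) of these. With 4 pairs, an exact sign-flip test of 1 gene cannot give a two-sided p under 0.125.

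PAX1, a paired-box transcription factor of the pharyngeal endoderm and the developing spine, had the largest change on the CV side among named genes with 1 direction in 4 of 4 animals. Its level was 974, 1861, 2160 and 2279 units in CV and 16.9, 11.6, 8.32 and 11.2 in FG buds. Every FG sample was below the minimum and every CV sample far above it. The log2 change was 7.22 ± 0.43 (adjusted p = 0.0422 in the paired and 1.80e-06 in the 10-array fit), which is at least 69.1-fold with values under 25 raised to 25. The difference was not one of taste buds alone, since LE beside CV papillae held 6763 to 8148 units and LE beside FG papillae 9.14 to 40.9 (log2 change 8.53 ± 0.41, adjusted p = 0.0247). PAX1 was the only probe set to pass in LE, where 0.00499% passed on the CV and 0% on the FG side. In the 20-array fit, which treats LE of both sites as 1 group, its adjusted p was 0.246. Top fractions of CV buds from other animals held 1530 to 2202 units and bottom fractions 1524 to 1996, within the range of whole CV buds.

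Of the unnamed probe sets that passed, MmugDNA.43618.1.S1_at was at 6.51, 4.58, 5.7 and 3.54 units in CV and 883, 1725, 558 and 766 in FG buds (log2 change -7.5 ± 0.40, adjusted p = 0.0422 in the paired and 2.26e-05 in the 10-array fit), at least 35.9-fold. It was at 470.4 and 2230 units in the FG buds of animals 2 and 6 and no higher than 10.8 in any LE sample of the 4 animals. A probe set of SEZ6L, which codes for a neuronal membrane protein, had a like pattern over the samples and is named here after its values were seen. Whether both probe sets belong to 1 gene was not tested. It stood at 10.2, 8.07, 8.31 and 11.5 units in CV, 379, 747, 252 and 398 in FG and 226 and 1013 in the FG buds of animals 2 and 6 (log2 change -5.45 ± 0.37, adjusted p = 0.0506 and 1.97e-04). Both probe sets were lowest in animals 2 and 4 and highest in animals 3 and 6. The publication prints an FG over CV ratio for SEZ6L. The means of MmugDNA.43618.1.S1_at over all FG and over all CV samples give that ratio. Another probe set of SEZ6L, which represents the gene in the lists because it is the brighter one over all samples, was dim in both bud types (27.9, 17.8, 20.2 and 25.5 in CV and 37.4, 31.6, 18.5 and 24.03 units in FG, adjusted p = 0.761). The other unnamed probe set, MmuSTS.2055.1.S1_at, was at 17.1, 14.7, 10.8 and 18.3 units in CV and 1154, 1259, 1106 and 641 in FG buds (log2 change -6.08 ± 0.36, adjusted p = 0.0422 and 1.80e-06), at least 40.3-fold. This one also differed outside the buds, with 9.96 to 342 units in LE beside CV and 1840 to 2784 in LE beside FG papillae, and its log2 change there was -6.20 ± 0.85 (adjusted p = 0.186).

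**Figure D2:**
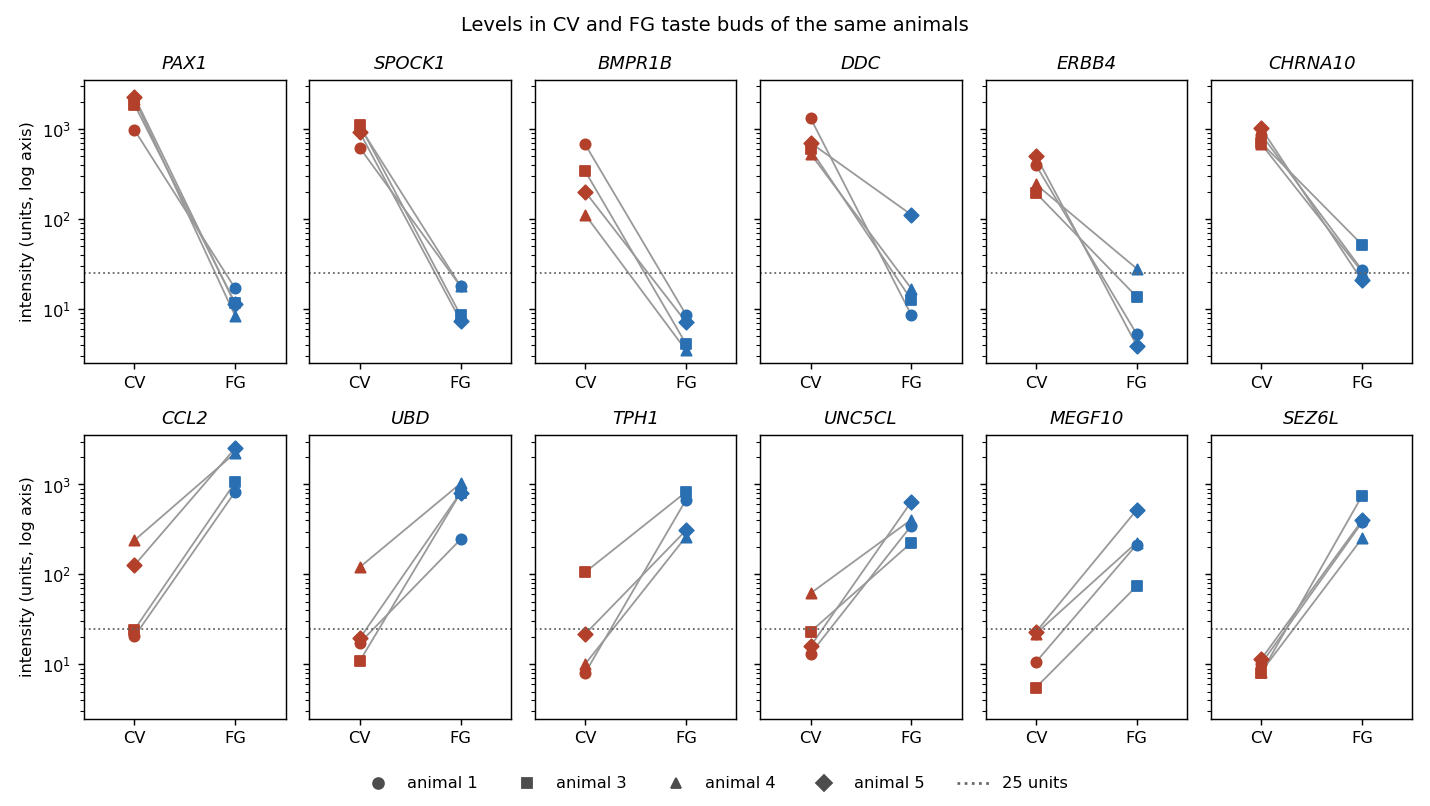
Intensity in units, on log axes, of 12 genes in CV and FG taste buds, with 1 point per sample, symbols for animals and lines joining the samples of an animal; the dotted line marks 25 units. The upper genes were higher in CV and the lower genes higher in FG buds in every animal without overlap; SEZ6L is shown by the probe set whose 4 FG values run from 252 to 747 units, and of all 12 PAX1 passed the paired fit.

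Among 31 regulators of tongue and pharyngeal patterning on the array, 23 were tested. PAX1 passed in the paired fit, 3 were higher in CV in the 10-array fit and none was higher in FG, where 0.898% and 0.803% of all 9463 tested genes passed. These shares hold beside every list count from the 10-array fit below, as 11.6% (CV) and 12.5% (FG) do for genes higher in 4 of 4 animals and 4.02% and 4.65% for genes without overlap. The list had a median log2 change of -0.07, beside -0.01 for all tested genes. FOXA1, a forkhead factor of endodermal organs, was at 133, 154, 104 and 262 units in CV and 50.6, 33.4, 20.9 and 46.6 in FG buds (log2 change 2.1 ± 0.31, adjusted p = 0.147 and 0.016). All CV samples lay above all FG samples, and in LE the CV side was higher in 3 of 4 animals. LGR5, a receptor of Wnt-amplifying R-spondins and a stem cell marker, was at 25.9, 290.5, 622 and 756 units in CV and 8.96, 44.9, 5.3 and 3.9 in FG buds. All 4 animals had more of it in CV (log2 change 4.67 ± 1.14, adjusted p = 0.242 and 0.0341), but the CV sample of animal 1 lay below the FG sample of animal 3. PROX1, a homeobox factor of taste placodes, leaned the other way, at 189, 744, 953 and 765 units in CV and 1870, 2452, 1967 and 1260 in FG buds without passing (log2 change -1.7 ± 0.50, adjusted p = 0.293 and 0.0982). Another probe set of PROX1 had a log2 change of 0.14. The T-box repressor TBX2 was likewise higher in FG in every animal, at 111, 61.7, 183 and 182 against 270.4, 231, 310.5 and 544 units, and did not pass either (adjusted p = 0.221 and 0.123). A dim second probe set of TBX2 had a log2 change of -0.05.

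HOX genes, which give the body axis its address, were mostly dark. Of 26 with a probe set, 2 were bright enough to test. HOXB3 was at 400.3, 279, 189.9 and 259 units in CV and 15.03, 20.3, 124 and 8.02 in FG buds, without overlap (log2 change 3.53 ± 0.79, adjusted p = 0.216 and 0.0233). It was at or below 10.03 units in LE of either site, and the FG sample of animal 4 was the 1 FG sample above the minimum. HOXD10 did not separate the bud types, at 558, 75.2, 274 and 278 units in CV and 224, 191, 250 and 327 in FG (adjusted p = 0.984). A pair of homeobox genes outside the lists, chosen after their values were seen, are IRX3 and TLX1. IRX3 was at 128, 551, 275 and 289 units in CV and 13.9, 18.8, 8.1 and 12.8 in FG buds (log2 change 4.41 ± 0.40, adjusted p = 0.0707 and 9.49e-04), while LE held 140 to 224 units beside CV and 100.5 to 299 beside FG papillae. The FG buds were thus the low samples, below their own epithelium. TLX1 was at 12.1, 19.6, 19.6 and 11.6 units in CV and 93.3, 131, 153 and 37.7 in FG buds (log2 change -2.58 ± 0.34, adjusted p = 0.125 and 0.155), but only 42.4 and 11.9 in the FG buds of animals 2 and 6, which enter the 10-array fit alone. TLX1 did not pass in either fit. In LE it was again lower on the CV side in 4 of 4 animals, with 13.3 to 28.3 against 17.6 to 535 units.

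After PAX1, the largest CV-side differences with 1 direction in all 4 animals belonged to SPOCK1, BMPR1B, DDC, ERBB4, SLC1A3, CHRNA10, LGR5, ESRRG and a probe set annotated as RPS19. None of these 9 passed in the paired fit, and all 9 did in the 10-array fit. The ranking takes 1 probe set per gene. A probe set of NFIB that did not represent its gene had a log2 change of 5.25 (adjusted p = 0.0838 and 0.0203). It was higher in CV in 4 of 4 animals, as were further NFIB probe sets with log2 changes of 3.55 and 1.18. SPOCK1, a secreted proteoglycan with protease inhibitor domains, was at 616, 1101, 1054 and 914 units in CV and 17.8, 8.48, 17.9 and 7.37 in FG buds (log2 change 6.24 ± 0.42, adjusted p = 0.0506 and 2.17e-05), at least 35.96-fold. BMPR1B, a type I receptor for bone morphogenetic proteins, was at 672, 339, 111 and 199.9 units in CV and 8.63, 4.09, 3.47 and 7.15 in FG buds (log2 change 5.62 ± 0.40, adjusted p = 0.0514 and 3.28e-04). Both genes were near or below the 25-unit minimum in all FG samples, and BMPR1B was dark in LE too, at no more than 7.77 units.

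CHRNA10, a nicotinic acetylcholine receptor subunit known from cochlear hair cells, was at 864, 699.7, 678 and 1012 units in CV and 26.98, 51.7, 25.8 and 20.7 in FG buds (log2 change 4.77 ± 0.38, adjusted p = 0.0609 and 2.78e-05), or 26.1-fold after raising. The lowest CV sample was far above the highest FG sample. Of the 25 acetylcholine, glutamate and GABA receptor genes on the array, 4 were tested and CHRNA10 was the one that passed the 10-array fit. ESRRG, an orphan nuclear receptor, was at 459, 464, 524 and 500.4 units in CV and 65.8, 7.69, 16.2 and 16.3 in FG buds (log2 change 4.67 ± 0.55, adjusted p = 0.0984 and 0.00141). SLC1A3, the glial glutamate transporter that marks type I taste cells, was at 464, 547, 1307 and 637 units in CV and 13.98, 157, 9.22 and 14.3 in FG buds (log2 change 4.87 ± 0.86, adjusted p = 0.171 and 0.013). The FG sample of animal 3 was well above the other FG samples, yet below every CV sample. Of 7 type I cell genes on the array, 3 were tested, and FXYD6, a regulator of the sodium pump, lay on the FG side, at 974, 1726, 1659 and 1253 units in CV and 2091, 1983, 2041 and 2108 in FG buds (log2 change -0.59, adjusted p = 0.478). The 3 tested genes of this list therefore gave no common direction. Whether FXYD6 marks type I cells in these buds was not tested, so no direction for type I cells follows. The probe set annotated as RPS19, a ribosomal protein gene, was at 1053, 415, 84.5 and 198 units in CV and 10.4, 13.8, 13.5 and 13.1 in FG buds (log2 change 4.53 ± 0.67, adjusted p = 0.147 and 0.0301). Its levels are low for a gene that every cell uses, and its name rests on the array's annotation alone.

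Taste receptor genes split by class. The umami subunit TAS1R1 was higher in FG and several bitter receptors were higher in CV buds, as the plot of taste receptor levels shows. Of 26 taste receptor genes with a probe set, 13 were tested. None passed in the paired fit, 2 were higher in CV (TAS2R13 and TAS2R43) and 1 in FG (TAS1R1) in the 10-array fit, and the median log2 change was 0.85 beside -0.01 for all genes. The 20-array fit passed 4 on the CV and 1 on the FG side. In every animal 5 were higher in CV and 2 in FG, where 11.6% and 12.5% of all tested genes were. The other 13, among them TAS2R1, TAS2R38 and OTOP1, did not reach the minimum.

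TAS1R1 was at 18.4, 71.5, 76.6 and 97.8 units in CV and 308, 371, 499 and 366 in FG buds (log2 change -2.76 ± 0.43, adjusted p = 0.152 and 0.0116), or 6.28-fold after raising. Another probe set of the gene had a log2 change of -2.19 ± 0.41 (adjusted p = 0.181 and 0.0112). The sweet receptor subunit TAS1R2 was dim throughout and also higher in FG in 4 of 4 animals, at 11.9, 29.8, 21.6 and 14.8 units in CV and 41.05, 66.5, 35.3 and 24.5 in FG buds, but its groups overlapped and it did not pass (log2 change -1.09 ± 0.32, adjusted p = 0.289 and 0.126). Both TAS1R genes thus lay on the FG side, and TAS1R1 alone without overlap.

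The bitter receptor TAS2R13 was at 67.5, 75.1, 182 and 398 units in CV and 8.81, 6.73, 9.16 and 9.77 in FG buds (log2 change 4.02 ± 0.46, adjusted p = 0.0984 and 0.00262), at least 5.54-fold. All 4 FG samples, and those of animals 2 and 6, were under the minimum. TAS2R43 was at 43.1, 98.99, 162 and 66.1 units in CV and 8.74, 5.97, 19.7 and 8.42 in FG buds (log2 change 3.09 ± 0.37, adjusted p = 0.103 and 0.0254). TAS2R14, a receptor of very broad tuning and the brightest here, was at 3286, 3220, 3015 and 4221 units in CV and 124, 159, 974 and 1723 in FG buds. Its CV samples were close together and above all FG samples, while the FG samples differed widely among themselves, low in animals 1 and 3 and high in 4 and 5 (log2 change 3.0 ± 0.71, adjusted p = 0.236 and 0.107). TAS2R8 was at 387, 189.8, 70.1 and 205 units in CV and 29.7, 72.9, 82.3 and 27.6 in FG buds and was higher in CV in 3 of 4 animals (adjusted p = 0.357 and 0.0802).

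The remaining bitter receptors did not separate the bud types. TAS2R55, named TAS2R42 by the array's annotation, was at 828, 1033, 704 and 702 units in CV and 320.4, 492, 655 and 813 in FG buds, TAS2R10 at 217, 397, 366 and 391 and 20.3, 422, 319 and 241, and TAS2R4 at 268, 422, 289.9 and 164 and 108, 271, 299.5 and 179. The 95% intervals of their log2 changes ran from -0.36 to 1.53, from -0.55 to 2.67 and from -0.44 to 1.33, so that differences of more than 2-fold in favour of CV were within each of them. TAS2R48 had a log2 change of 0.96 ± 0.43, TAS2R16 of 0.81 ± 0.59 and TAS2R50 of -0.27 ± 0.54 (adjusted p = 0.439, 0.616 and 0.867). PKD2L1, a channel of acid-sensing type III cells, was higher in CV in 4 of 4 animals with overlapping groups, at 558, 324, 315 and 504 units in CV and 198, 264, 152 and 342 in FG buds (log2 change 0.85 ± 0.32, adjusted p = 0.376 and 0.188). Bitter receptor genes are near-identical in places, and cross-hybridization between them on a chip of another species was not tested.

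**Figure D3:**
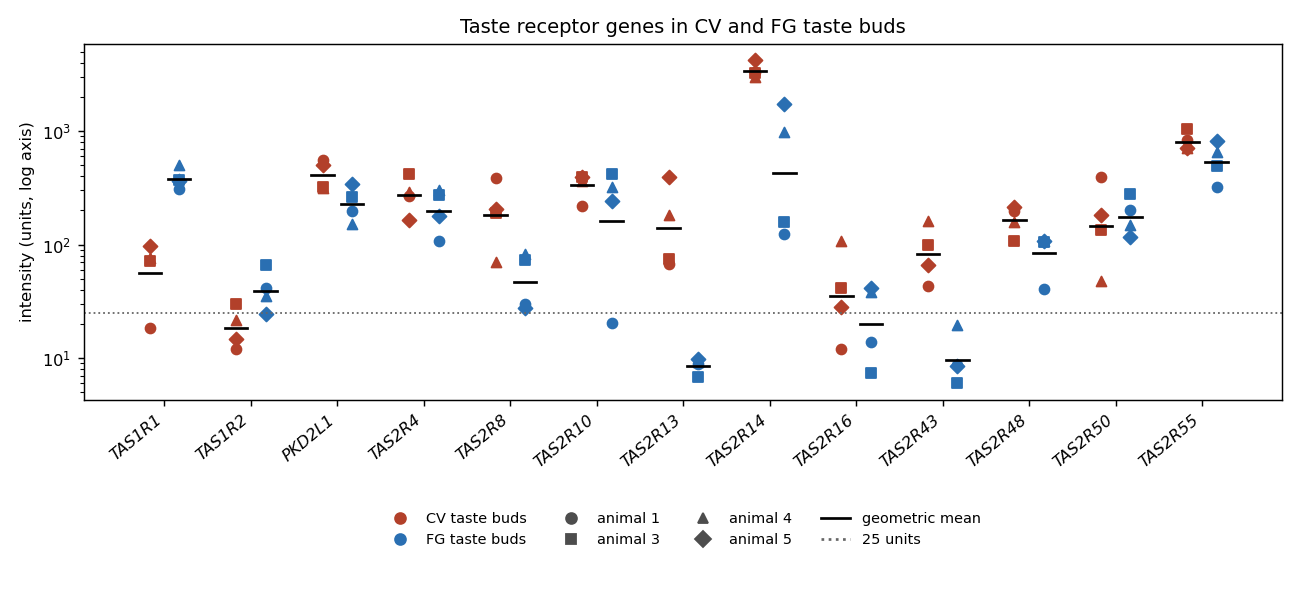
Intensity in units, on a log axis, of the 13 tested taste receptor genes in CV and FG taste buds, with 1 point per sample, symbols for animals, a bar at the geometric mean of 4 samples and a dotted line at 25 units. TAS1R1 was higher in FG and TAS2R13, TAS2R14 and TAS2R43 higher in CV buds without overlap, and the other receptors overlapped.

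Type II transduction genes lay on both sides. Of 14 tested 1 was higher in CV in the 10-array fit, none passed in the paired fit, and the median log2 change was 0.04. In every animal 3 were higher in CV and 3 in FG, 2 and 2 of these without overlap. GNA14, a G protein alpha subunit of the Gq family, was at 63.7, 34.9, 143 and 77.9 units in CV and 20.8, 15.4, 13.4 and 13.3 in FG buds (log2 change 2.19 ± 0.45, adjusted p = 0.197 and 0.0203). The phospholipase PLCB2 was bright in both, at 6519, 7161, 7085 and 6132 units in CV and 5428, 4387, 5256 and 5099 in FG buds, without overlap but with a log2 change of only 0.42 ± 0.27 (adjusted p = 0.566). ITPR3, the calcium release channel of type II cells, was lower in CV in every animal, at 52.1, 66.6, 122 and 176 units against 691, 294, 512 and 411 in FG buds (log2 change -2.29 ± 0.46, adjusted p = 0.194 and 0.102). SCN3A, a sodium channel of taste cell action potentials, was at 492, 935, 1086 and 1383 units in CV and 2186, 1905, 2165 and 1429 in FG buds (adjusted p = 0.384 and 0.094). ITPR3 and SCN3A thus did not overlap between bud types and did not pass in these fits. The adjusted p from the 20-array fit, which is not given for most genes, was 0.0099 for ITPR3. In that fit 1 gene of this list passed on each side.

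The enzymes of serotonin synthesis went opposite ways. TPH1, tryptophan hydroxylase, which catalyses the rate-limiting step, was at 8.07, 106, 10.1 and 21.8 units in CV and 673, 824, 262 and 309 in FG buds (log2 change -4.46 ± 0.60, adjusted p = 0.133 and 0.0112), at least 12.8-fold higher in FG. DDC, the decarboxylase of the next step, was at 1316, 594, 529 and 701 units in CV and 8.54, 12.6, 16.8 and 111 in FG buds (log2 change 5.11 ± 0.75, adjusted p = 0.147 and 0.0112), at least 20.2-fold higher in CV. Every animal showed both directions without overlap, and the FG buds of animals 2 and 6 matched their group, at 488 and 373 units of TPH1 and 60.9 and 39.9 of DDC. The probe set of DDC carries another name, BMP2K, in the array's annotation, and DDC is the name in the supplementary gene table of the study. TPH1 spanned 70.1 to 303 units over the top fractions of CV buds and 5.35 to 688 over the bottom ones.

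Of 12 tested genes of monoamine synthesis, transport and reception, 1 (DDC) was higher in CV and 2 (TPH1 and HTR3E) were higher in FG in the 10-array fit, and none passed in the paired fit. HTR3E, a subunit of the serotonin-gated ion channel, was at 11.6, 8.75, 9.21 and 17.7 units in CV and 296, 49.2, 54.8 and 220.5 in FG buds (log2 change -3.35 ± 0.46, adjusted p = 0.139 and 0.0204). Its sister HTR3C was at 15.8, 22.4, 10.5 and 8.61 units in CV and 1309, 36.7, 159.8 and 94.9 in FG buds (log2 change -3.62 ± 0.89, adjusted p = 0.244 and 0.0531). Both were below the minimum in all CV samples, and both varied widely within FG. DBH, which makes noradrenaline from dopamine, was at 1439, 929, 1108 and 1105 units in CV and 847, 182, 299.9 and 885 in FG buds and did not pass (log2 change 1.33 ± 0.43, adjusted p = 0.327 and 0.295). Among 12 tested type III cell genes, DDC was higher in CV, and TPH1 and INSM1 were higher in FG in the 10-array fit. INSM1, a zinc-finger factor of neuroendocrine cells, was at 597, 749.7, 859.8 and 916 units in CV and 1999, 1729, 1431 and 1975 in FG buds (log2 change -1.2 ± 0.30, adjusted p = 0.244 and 0.0234). The summed level of all 17 type III genes overlapped between bud types, at 8574, 7857, 7769 and 9045 units in CV and 9001, 9862, 9228 and 8457 in FG buds.

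Cytokine and chemokine genes that respond to NF-kB lay mostly on the FG side. Of 31 on the array 17 were tested, and 13 of these were higher in FG in 4 of 4 animals and 1 higher in CV, beside 12.5% and 11.6% of all genes. Without overlap 6 were higher in FG, beside 4.65% of all genes, and none was higher in CV, beside 4.02%. The median log2 change was -2. None passed in the paired fit and 2, CCL2 and UBD, passed in the 10-array fit. The 20-array fit passed 1 on the CV and 3 on the FG side. CCL2, which attracts monocytes, was at 20.5, 24.4, 239.5 and 127 units in CV and 831, 1060, 2244 and 2533 in FG buds (log2 change -4.58 ± 0.46, adjusted p = 0.0838 and 0.0116), or 22.7-fold after raising. UBD, a ubiquitin-like modifier induced by inflammatory cytokines, was at 17.4, 10.9, 121 and 19.5 units in CV and 245, 809, 1026 and 812 in FG buds (log2 change -4.62 ± 0.58, adjusted p = 0.113 and 0.00943). In CV buds both were highest in animal 4.

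IL1B, the interleukin 1 beta gene, had the largest change of this list in the paired fit. It was at 8.6, 8.35, 480.1 and 319.9 units in CV and 872, 3780, 6128 and 4600 in FG buds (log2 change -5.75 ± 0.94, adjusted p = 0.158 and 0.142). The CV samples of animals 4 and 5 were far above those of animals 1 and 3, and the FG buds of animals 2 and 6 held 2248 and 64.6 units. CCL3, another chemokine, was at 13.8, 11.6, 104 and 11.96 units in CV and 113, 793, 802 and 540.3 in FG buds (adjusted p = 0.147 and 0.0906), and the neutrophil attractant CXCL2 at 163, 6.28, 424 and 796 and 1369, 1113, 2287 and 2526 (adjusted p = 0.267 and 0.125). Complement factor B (CFB) was the member higher in CV in every animal, at 110.2, 14.8, 199.5 and 97.4 units in CV and 11.7, 11.2, 55.8 and 22.4 in FG buds (log2 change 1.9 ± 0.50, adjusted p = 0.259).

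Epithelium gave the opposite order for this list as a sum. LE beside CV papillae held 6575, 4847, 6724 and 9781 units and LE beside FG papillae 3017, 2609, 2373 and 5470, against 1903, 1257, 5346 and 5001 in CV buds and 8616, 11600, 24230 and 21270 in FG buds. The median log2 change of the 17 genes was 0.50 in LE. CCL2 and UBD themselves were near background in LE of both sites, at no more than 20.9 and 19.4 units. The CV fractions, from other animals, held 1502 to 3315 units (top) and 1356 to 2513 (bottom), within or near the range of whole CV buds.

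Leukocyte genes are given beside these chemokines. Of 5 leukocyte markers tested none passed in either fit, 2 were higher in FG in every animal, beside 12.5% of all genes, and the median log2 change was -1.12. Further probe sets of leukocyte genes, which did not represent their gene in the list, lay on both sides. That of PTPRC averaged 210.8 units in CV and 137.8 in FG buds, with the CV sample the higher one for 3 animals. Its mean difference was 0.66 ± 0.43 on the log2 scale. That of CD68 averaged 44.03 units in CV and 118.2 in FG buds. The leukocyte genes that follow were chosen after their values were seen, and all were higher in FG. CD48, a surface protein of blood cells, was at 8.49, 10.3, 116 and 12.7 units in CV and 129.5, 355, 765 and 220 in FG buds (log2 change -3.97 ± 0.44, adjusted p = 0.0984 and 0.0321). LCP2, an adaptor of T cell receptor signalling, was at 4.99, 6.8, 23.3 and 9.14 units in CV and 67.5, 60.4, 269 and 123 in FG buds (log2 change -3.55 ± 0.28, adjusted p = 0.0609 and 0.0226), and RGS1, a regulator of lymphocyte migration, at 20.9, 11.6, 24.4 and 11.9 and 116, 89.96, 247 and 149 (adjusted p = 0.0838 and 0.00182). All 3 were highest in the FG sample of animal 4. GIMAP5, a GTPase of lymphocytes, was at 12.4, 87.2, 8.73 and 31.4 units in CV and 218, 319, 789.6 and 741 in FG buds (log2 change -4.27 ± 0.75, adjusted p = 0.171 and 0.0183). ACAP1, an Arf GTPase-activating protein abundant in lymphocytes, was at 10.7, 48.5, 5.24 and 7.53 units in CV and 106, 84.6, 402 and 366 in FG buds but at 32.9 and 9.09 in animals 2 and 6 (adjusted p = 0.236 and 0.189). The share of leukocytes in the FG samples and its part in the chemokine values were not tested.

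Other genes with a large FG-side change were mixed in kind. UNC5CL, a death-domain protein that activates NF-kB and was listed here among axon guidance genes for its kinship to netrin receptors, was at 13.2, 23.1, 61.8 and 15.96 units in CV and 349, 225, 407 and 643 in FG buds (log2 change -4.02 ± 0.52, adjusted p = 0.117 and 0.00262). MEGF10, an engulfment receptor, was at 10.6, 5.54, 22 and 22.9 units in CV and 215, 74.2, 226 and 521 in FG buds (log2 change -3.99 ± 0.32, adjusted p = 0.0609 and 0.00773), and it was at 107 to 489.5 units in the top fractions of CV buds of other animals, above every whole CV sample. PHLDB2, a protein of microtubule anchoring at the cell cortex, was at 59.6, 4.8, 226 and 9.11 units in CV and 601, 207, 778 and 1098 in FG buds with overlap (adjusted p = 0.191 and 0.0531). EMILIN2, an extracellular matrix glycoprotein, was at 91.9, 28.2, 30.2 and 40.2 units in CV and 791, 497, 422 and 361 in FG buds (log2 change -3.55 ± 0.32, adjusted p = 0.0643 and 0.00122). The UNC5CL and EMILIN2 groups were far apart in every animal, and the FG samples of animals 2 and 6 were as high.

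The immediate early list, genes that respond to stimulation within minutes, held 13 tested members, of which 5 were higher in FG and none in CV in every animal beside 12.5% and 11.6% of all genes (median log2 change -0.52). IER5 passed the 10-array fit on the FG side, at 9.54, 25.8, 31.6 and 20.4 units in CV and 58.7, 119, 103 and 74.1 in FG buds (log2 change -2.1 ± 0.30, adjusted p = 0.143 and 0.0203). LE levels of IER5 were far higher and ran the other way, at 611 to 1178 units beside CV and 376 to 676 beside FG papillae. Probe sets that did not represent their gene lay on both sides. That of EGR2 averaged 9.37 units in CV and 123 in FG buds (log2 change -3.54 ± 0.30, adjusted p = 0.0609 and 0.0267) and was higher in FG in every animal. A probe set of NR4A2 was higher in CV in every animal (log2 change 0.83, adjusted p = 0.44 and 0.49). Of 13 tested feedback genes of the ERK pathway DUSP4, a phosphatase of ERK kinases, was higher in FG in the 10-array fit, at 94.8, 183, 258 and 196 units in CV and 547, 579, 533 and 421 in FG buds (log2 change -1.58 ± 0.36, adjusted p = 0.221 and 0.0301). Among 17 interferon responsive genes GBP1, a guanylate-binding protein, was higher in FG in the 10-array fit, at 14.3, 21.7, 18.6 and 9.37 units in CV and 55.8, 93.8, 140.5 and 129.5 in FG buds (adjusted p = 0.147 and 0.0247), and the median of the list was -0.35.

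**Figure D4:**
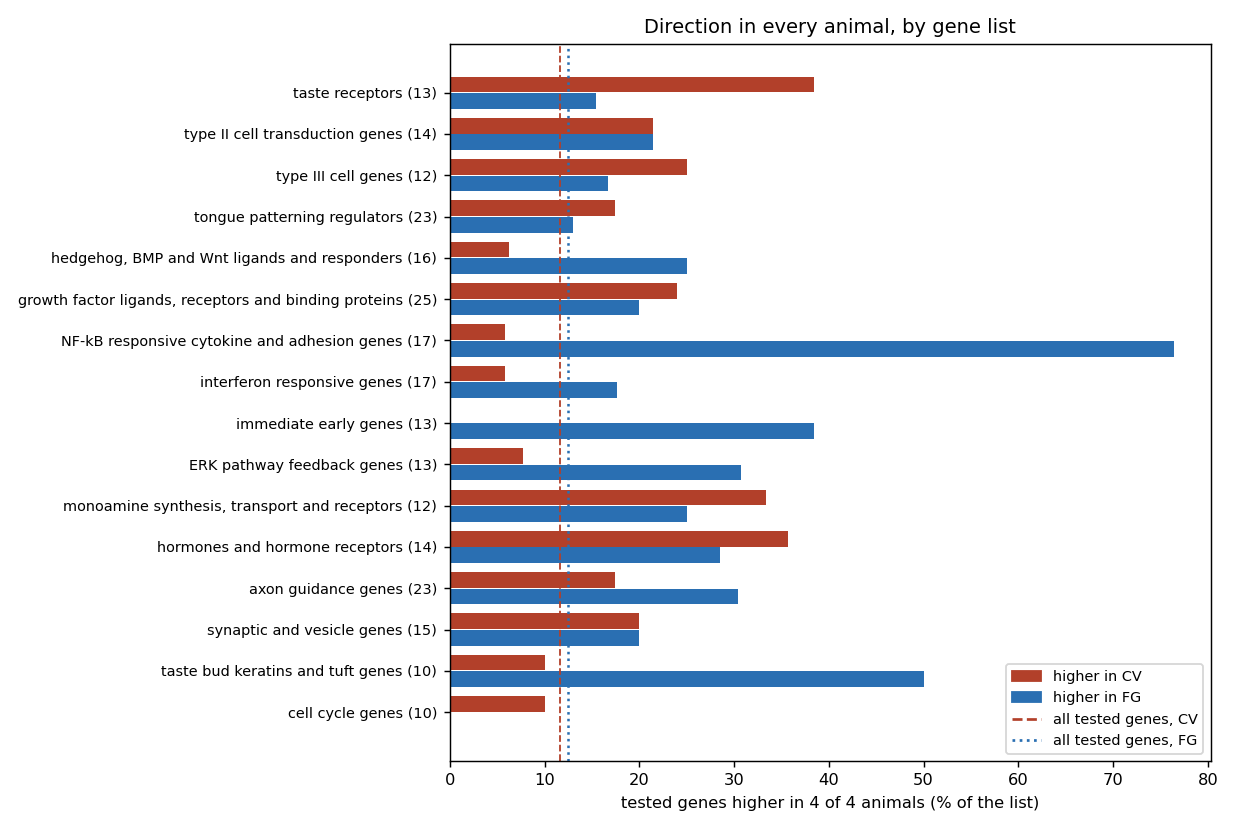
Share of the tested genes of each list, in percent, that were higher in CV (upper bars) or in FG (lower bars) buds in 4 of 4 animals, with the number of tested genes in brackets and lines at the shares of all tested genes, 11.6% for CV and 12.5% for FG. The NF-kB responsive list had 13 of 17 genes higher in FG, the keratin and tuft list 5 of 10, the immediate early list 5 of 13, and the taste receptors had 5 of 13 higher in CV.

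Growth factor genes passed on both sides in the 10-array fit. Of 25 tested genes, ERBB4 and IGF1 were higher in CV and IGFBP3 higher in FG in the 10-array fit, none passed in the paired fit, and the median log2 change was -0.16. ERBB4, a receptor tyrosine kinase for neuregulins, was at 395, 194, 242 and 501 units in CV and 5.24, 13.6, 28.03 and 3.91 in FG buds (log2 change 5.04 ± 0.73, adjusted p = 0.147 and 0.00181). IGF1, insulin-like growth factor 1, was bright in both bud types, at 2900, 3587, 3843 and 3527 units in CV and 1007, 2003, 985 and 1321 in FG buds (log2 change 1.44 ± 0.31, adjusted p = 0.202 and 0.0301), while IGFBP3, which binds it in the extracellular space, was at 527, 171, 108 and 295 units in CV and 2009, 1927, 2310 and 2236 in FG buds (log2 change -3.19 ± 0.46, adjusted p = 0.146 and 0.00773). The ligand and its binding protein thus had opposite orders in all 4 animals without overlap. IGF1 ran the other way in LE, at 6.65 to 14.3 units beside CV and 10.6 to 111 beside FG papillae.

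Among 16 tested hedgehog, BMP and Wnt genes, BMP7 was higher in FG in the 10-array fit and the median log2 change was -0.29. BMP7, a bone morphogenetic protein, was at 1413, 2217, 2146 and 2113 units in CV and 3744, 3401, 3600 and 4213 in FG buds (log2 change -0.94 ± 0.29, adjusted p = 0.305 and 0.0467), and its receptor gene BMPR1B was the one that stood on the CV side above. SHH, the ligand made by basal precursor cells of the taste bud, was lower in every CV than in every FG sample, at 2137, 1824, 1971 and 1444 units against 3570, 3038, 3251 and 2865 in FG buds, and did not pass (log2 change -0.8 ± 0.26, adjusted p = 0.327 and 0.122). LEF1, a transcription factor of the Wnt pathway, was at 1826, 1252, 1246 and 1285 units in CV and 946, 1054, 483 and 737 in FG buds and did not pass (adjusted p = 0.363 and 0.122). None of these 3 genes overlapped between bud types by the probe sets given, with BMP7 and SHH higher in FG and LEF1 higher in CV. Other probe sets of BMP7 had log2 changes of -0.56 and -1.82 (adjusted p = 0.811 and 0.501 in the paired fit). In each of them 1 animal was higher in CV.

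Genes of nerve contact and vesicle release lay on both sides. Of 23 tested axon guidance genes 2 (SLIT1 and SLIT3) were higher in CV and 2 (UNC5CL and EFNB3) higher in FG in the 10-array fit. SLIT1, a repulsive guidance ligand whose probe set the array's annotation names ELFN1, was at 275, 274, 502 and 344 units in CV and 217, 74.1, 82.1 and 89.2 in FG buds (log2 change 1.7 ± 0.44, adjusted p = 0.253 and 0.0434). SLIT3, of the same family, is named ATP5F1E by the annotation and was at 49.9, 108, 92 and 132 units in CV and 33.6, 37.05, 33.98 and 45.03 in FG buds (adjusted p = 0.241 and 0.0466), and another SLIT3 probe set had a log2 change of -0.02. EFNB3, an ephrin ligand, was at 20.7, 28.9, 7.15 and 8.23 units in CV and 88.4, 206, 75.5 and 167 in FG buds (log2 change -3.17 ± 0.43, adjusted p = 0.139 and 0.0203). SEMA3D, a secreted semaphorin, was at 119.5, 63.2, 8.77 and 105 units in CV and 864, 1086, 92.8 and 670.3 in FG buds, with animal 4 low in both (log2 change -3.26 ± 0.35, adjusted p = 0.0891 and 0.0625). SEMA3D was higher in FG within each animal, although the groups overlapped, and another probe set of the gene had a log2 change of 0.23.

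Of 15 tested synaptic and vesicle genes, SYT13 was higher in FG and RIMS2 higher in CV in the 10-array fit. SYT13, an atypical synaptotagmin, was at 50.3, 232, 109 and 218 units in CV and 1196, 918, 845 and 1574 in FG buds (log2 change -3.09 ± 0.47, adjusted p = 0.152 and 0.0122). RIMS2, a scaffold of the release site, was at 850.4, 896, 924 and 893 units in CV and 237, 534, 223 and 256 in FG buds (log2 change 1.61 ± 0.33, adjusted p = 0.201 and 0.0179). GAP43, a growth cone protein kept among the Schwann cell and nerve markers, was at 693, 2762, 966 and 942 units in CV and 193, 476, 166 and 169 in FG buds (log2 change 2.35 ± 0.28, adjusted p = 0.109 and 0.0304). A second GAP43 probe set was higher in CV in 3 animals (log2 change 0.91, adjusted p = 0.604 and 0.449). The other tested gene of that marker list, ERBB3, was at 1051, 879.2, 918.2 and 600.6 units in CV and 1433, 1672, 1598 and 1343 in FG buds (adjusted p = 0.337), so that the nerve markers did not move together. The Schwann cell genes SOX10, S100B, MBP and PRX were not bright enough to test.

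Hormone genes lay on both sides. Of 14 tested, 2 (ESRRG and POMC) were higher in CV and 1 (PTHLH) higher in FG in the 10-array fit, none passed in the paired fit, and the median log2 change was 0.53. POMC, the precursor of melanocortins and beta-endorphin, was at 371, 179, 292 and 278 units in CV and 102, 31.8, 43.4 and 77.8 in FG buds (log2 change 2.23 ± 0.31, adjusted p = 0.139 and 0.0244). PTHLH, parathyroid hormone-like hormone, was at 46.1, 81.1, 143 and 111 units in CV and 224, 346, 797 and 1011 in FG buds (log2 change -2.51 ± 0.31, adjusted p = 0.111 and 0.0301). STC1, the calcium-regulating glycoprotein stanniocalcin 1, did not pass, at 310.2, 423, 306 and 466 units in CV and 85.3, 19.6, 85.5 and 9.64 in FG buds (log2 change 3.43 ± 0.74, adjusted p = 0.204 and 0.0785), and only 18.8 to 74.96 units in the top fractions of CV buds of other animals.

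Gland and keratin genes are given because the trench of the CV papilla and the surface of the FG papilla adjoin different tissues. Of 13 gland markers on the array 3 were tested, all higher in CV in every animal, beside 11.6% of all genes, with a median log2 change of 1.5 in buds and 1.07 in LE, and PIP and AZGP1 passed in the 10-array fit. PIP, a secreted protein of serous glands, was at 1544, 41.3, 132 and 167 units in CV and 7.03, 8.33, 10.1 and 13.8 in FG buds (log2 change 4.35 ± 0.91, adjusted p = 0.201 and 0.0241). The CV sample of animal 1 was far above the others, and another probe set of PIP, bright in both bud types, had a log2 change of 0.34 (adjusted p = 0.717 and 0.645). AZGP1, a zinc-binding glycoprotein of secretory epithelia, held 3979 ± 274 units in CV and 1467 ± 478 in FG buds (mean ± SD, n = 4, without overlap, log2 change 1.5 ± 0.33, adjusted p = 0.211 and 0.0203). A second, dim probe set of AZGP1 had a log2 change of -0.35 (adjusted p = 0.672). The gland genes LCN1, BPIFA1, LPO, MUC7 and CA6 did not reach the minimum.

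Of 15 tested differentiated keratinocyte markers 6 were higher in FG and 1 in CV in every animal, 3 and 1 of these without overlap, and the median log2 change was -0.3. The 1 on the CV side, ECM1, a matrix protein of differentiating epidermis, was also the one that passed in the 10-array fit, at 4853, 4623, 7199 and 3627 units in CV and 1688, 1216, 2097 and 1277 in FG buds (log2 change 1.68 ± 0.27, adjusted p = 0.156 and 0.0178). KRT1, a keratin of cornified epithelium, was at 75.1, 12.3, 20.8 and 11.4 units in CV and 241, 126, 371 and 362 in FG buds (log2 change -3.55 ± 0.58, adjusted p = 0.158 and 0.104), and in LE at 12.2 to 83.5 beside CV and 239.8 to 4831 beside FG papillae. The order was the same in both tissues in 4 of 4 animals. KRT20, a keratin of mature taste cells, did not pass, at 1652, 1017, 1423 and 869.8 units in CV and 3348, 1902, 2482 and 2703 in FG buds (log2 change -1.09 ± 0.29, adjusted p = 0.264 and 0.0542), and DCLK1, a tuft cell marker, did not either, at 2004, 654, 562 and 2089 and 2560, 2401, 2356 and 2966 (adjusted p = 0.351 and 0.201). A second KRT20 probe set had a log2 change of -0.20 (adjusted p = 0.827 and 0.67). Of 10 tested cell cycle genes, 9 basal keratinocyte, 6 fibroblast, 4 endothelium and 3 skeletal muscle markers, none passed in either fit. In every animal 6 of the 9 basal keratinocyte markers were higher in FG and 1 in CV, 2 and none of these without overlap, with a median log2 change of -0.53.

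Genes that the publication names as site-specific were chosen on these samples, so their direction is no independent evidence. Of 21 such genes with a tested probe set on the CV side, 20 were higher in CV in every animal and all 20 without overlap, the exception being FUBP1, at 609.2, 884.2, 781.4 and 793 units in CV and 634.2, 787.8, 786.8 and 691.8 in FG buds. None passed in the paired fit and 18 passed in the 10-array fit. SAMD5, a SAM-domain protein, was at 794, 550.3, 551 and 194 units in CV and 45.5, 19.02, 15.7 and 16.9 in FG buds, SLC26A7, an anion exchanger, at 1065, 1114, 630.3 and 1059 and 182, 22.1, 45.9 and 96.1, and KCNT2, a sodium-activated potassium channel, at 314, 493, 160.1 and 182 and 93.1, 11.3, 8.56 and 8.94. Of 23 tested on the FG side, 19 were higher in FG in every animal and 16 without overlap, and 15 passed in the 10-array fit. FGF19, FRMD4A, NETO2 and the dim probe set of SEZ6L did not have 1 direction in all animals. SEZ6L was counted by its brighter, dim probe set, and the other one described above was higher in FG in 4 of 4 animals without overlap. The publication ranks SEZ6L first on its FG list, by a ratio that the dim probe set does not give. The count for SEZ6L is therefore no check of the publication's value. The same holds for FUBP1, whose printed CV over FG ratio is not given by the probe set counted. Its other probe sets, with means of 135.3 against 96.28 and 78.38 against 59.4 units, do not give it either. Whether FGF19, FRMD4A and NETO2 were counted by the publication's probe sets was not tested.

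The largest bud differences were set beside the epithelium of the same animals. The taste bud and LE comparisons share no sample. Over the 20059 probe sets the Pearson correlation of their log2 changes was -0.00208, as a description across probe sets, which are not independent. The median log2 change was -0.045 in buds and 0.0994 in LE, and in LE 1245 probe sets (6.21%) were higher beside CV and 776 (3.87%) higher beside FG papillae without overlap. Of the 82 probe sets at least 5-fold higher in CV buds without overlap, 2 (2.44%) were also higher without overlap beside CV papillae. Of the 132 on the FG side, 7 (5.3%) were higher without overlap beside FG papillae. Among all probe sets these shares were 6.21% and 3.87%, so the small counts do not set the largest bud differences apart. Probe sets were chosen by their level in buds, and no minimum was asked of LE. PAX1, KRT1 and MmuSTS.2055.1.S1_at had the same direction in LE as in buds in 4 of 4 animals.

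**Figure D5:**
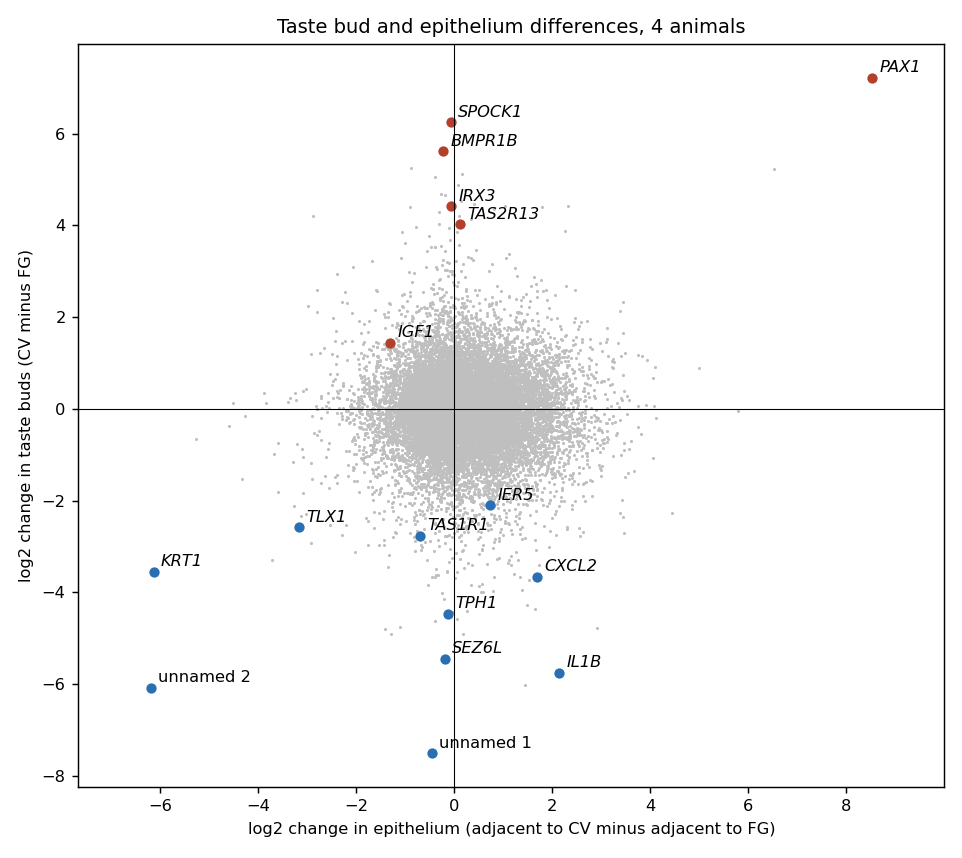
Log2 change in taste buds (CV minus FG, vertical axis) against log2 change in lingual epithelium (beside CV minus beside FG papillae, horizontal axis) for 20059 probe sets as grey points, with named genes in red (higher in CV buds) or blue (higher in FG buds). PAX1 was high on both axes, whereas SPOCK1, BMPR1B, TPH1 and MmugDNA.43618.1.S1_at (unnamed 1) differed in buds with epithelium changes between -0.45 and -0.07; unnamed 2 is MmuSTS.2055.1.S1_at.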

How the data were processed

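The authors deposited GC-RMA intensity values, quantile normalized over all 28 arrays, for 52024 probe sets; no version of their software was found in the labels or methods. Here the deposited intensity was converted to log2, and probe sets with at least 25 units in 4 or more of the 8 taste bud samples were fitted with limma 3.58.1 in R 4.3.3 (lmFit and eBayes, animal as a fixed block, Benjamini-Hochberg adjustment over 20059 probe sets). The pairs come from the animal numbers in the labels. After removal of group means, samples of 1 animal correlated at 0.112, 0.0902, 0.13 and 0.0829 (animals 1, 3, 4 and 5), beside a mean of -0.034 between animals. LE was fitted alike on the same probe sets. The scripts were tested on simulated data.

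Probe sets were named from 1997 entries of the supplementary gene table of the study, which holds more than were used. Otherwise the array's annotation served where it gives 1 gene, and 399 of 1129 tested probe sets named by both differ. The fold changes and p-values in that table were not used. A gene was represented by its probe set in that table, otherwise by its brightest over all 28 samples. Named genes are the 10 largest changes per direction shared by 4 of 4 animals, every tested taste receptor, up to 5 members of each list that passed and up to 2 that did not. Since almost none passed in the paired fit, list members that passed in the 10-array fit were taken, and that fit was put beside the paired one, after results were seen; further genes are HOXD10, PLCB2, ITPR3, SCN3A, DBH, EMILIN2 and those said in the text to be chosen after their values were seen. The members and lists were chosen with earlier results of these data known. Alternatives changed the block, floor, scaling, filter, samples, spread moderation, test, probe set and animals.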

Additional observations from a re-analysis of the deposited data

Results flagged for a closer look

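For 5 genes the epithelium of all 4 animals went the opposite way to the taste buds, and the difference between the tissues was not tested. The log2 change, CV minus FG side, was -0.23 in LE against 5.62 in buds for BMPR1B, 1.70 against -3.66 for CXCL2, 0.51 against -3.17 for EFNB3, 0.73 against -2.10 for IER5 and -1.31 against 1.44 for IGF1. LE levels of BMPR1B and EFNB3 were under the minimum of 25 units at both sites.

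In 13 of 174 groups of 4 samples checked over 87 probe sets, 1 sample stood apart from the other 3 by Dixon's criterion, which chance alone meets in about 1 in 20 groups. In CV buds animal 1 was apart for BMP7 (1413 units against 2113 to 2217), LEF1 (1826 against 1246 to 1285), PROX1 (188.9 against 744.5 to 952.9) and TAS2R10 (216.8 against 366.5 to 397.4). Animal 4 was apart in CV buds for CCL3 (103.8 units against 11.6 to 13.8), CD48 (115.6 against 8.49 to 12.7) and SLC26A7 (630.3 against 1059 to 1114). In FG buds animal 3 was apart for GAP43 (475.5 units against 165.9 to 193.4), RIMS2 (534.4 against 223.4 to 256.3) and SLC1A3 (157.2 against 9.22 to 14.3), and animal 1 for KCNT2 (93.1 against 8.56 to 11.3), TAS2R48 (40.8 against 105.1 to 108.4) and UBD (245.4 against 808.9 to 1026).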

How the results depend on the processing

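The count of passed probe sets depended on the fit. Beside 1 higher in CV and 2 higher in FG buds in the paired fit, there were 23 and 18 without the animal as a block, 7 and 11 with a filter of 25 units in all 4 samples of a group, 24 and 24 with an intensity trend and robust moderation, 108 and 133 with 20 arrays, and 117 and 181 with 10 arrays. With values under 25 raised to 25, 2 passed on the CV side. None passed on either side without a filter, by the methods' paired t-test after Benjamini-Hochberg adjustment (931 and 1315 at an unadjusted p of at most 0.05), or without any 1 of the 4 animals (0 to 0). In LE, 18 instead of 1 passed beside CV papillae without the block, and 0 to 0 without any 1 animal. Direction changed in few cases for the 87 named probe sets. Many of them were named for 1 direction in every animal or for passing a fit, so this was largely fixed beforehand. Removing the block, or changing the filter, moderation or test, also leaves the log2 change itself as it was. Direction turned for HOXD10 with 20 arrays (0.19) and when 1 animal was left out (-0.48 to 0.40), for TAS2R50 when 1 animal was left out (-0.68 to 0.19, with 0.0013 without animal 3), and in other probe sets of PROX1 (0.14), SEMA3D (0.23) and AZGP1 (-0.35). HOXD10 was also turned without animal 5 (0.03). Causes were not tested. With 4 pairs, a missed threshold does not show that bud types are alike.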
